A study of Sus scrofa with 11 samples.

Results

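Collagens, laminins, their cross-linking and degrading enzymes and other proteins of the extracellular matrix were followed through pig liver after irradiation. The set was chosen by gene name: collagen chains, matrix metalloproteinases (MMPs), tissue inhibitors of metalloproteinases (TIMPs), laminin chains, lysyl oxidases, fibrillins and fibulins, together with FN1, SPARC, LUM, DCN, BGN, CCN2, POSTN, THBS1 and THBS2. Of 58 such genes in a table of 12505 genes, 48 reached 1 FPKM (fragments per kilobase of transcript, scaled to the library total) in at least 2 libraries, the minimum set for a test, and these 48 are the matrix genes described here. They are 48 of the 11644 genes that met the same minimum. COL4A6, with a second-highest value of 1.18 FPKM, lay just inside that minimum, and MMP25, with 0.870 FPKM, just outside it. Genes under the minimum included COL15A1, COL17A1, COL8A1, FBN1, LOX, MMP1, MMP12, MMP13 and MMP25.

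The extracellular matrix of the liver is a thin scaffold of fibrillar collagens around the portal tracts and central veins, with a sparse, discontinuous matrix along the sinusoids. Fibrillar collagens are laid down mainly by activated stellate cells and portal fibroblasts, are processed and cross-linked outside the cell by lysyl oxidases, and are cleaved by MMPs, which the TIMPs inhibit. Laminins and type IV collagen form basement membranes around vessels and bile ducts.

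Total RNA of wild-type pig liver was sequenced in 11 libraries: 2 controls of day 0, and 3 libraries each from livers given 20, 30 or 40 Gy, all of day 35. The study is titled for radiation-induced veno-occlusive liver disease, and the comparisons ask how the matrix genes stood in irradiated against control liver and among the doses. No other treatment or allele is given, and the labels do not state the pigs' age. Because every irradiated library is from day 35 and every control from day 0, dose and elapsed time cannot be told apart against control, whereas the doses share a day. The labels name hepatocyte as the cell type, but the libraries also held transcripts of other liver cells, with PDGFRB of stellate cells at 6.05 to 18.1 FPKM, CDH5 of endothelium at 4.42 to 19.7 and CD68 of macrophages at 9.32 to 79.7, beside ALB of hepatocytes at 7050.0 to 42547. In such bulk RNA, fewer cells of a type and less RNA per cell cannot be told apart. The labels do not tie libraries to animals, and p-values therefore reflect only the spread among libraries, which may be technical.

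The libraries had features that touch the results. First, 30Gy-1 and 30Gy-2 were nearly identical, as were 20Gy-3 and 30Gy-3 from different doses: over the 48 matrix genes the difference in log2(FPKM + 1) had a spread (SD) of 0.102 and 0.117 in these pairs, and the next closest pair, 40Gy-2 and 40Gy-3, had 0.258. Over 4806 genes with at least 5 FPKM in every library the spreads of the log2 ratio were 0.137 and 0.130, against 0.305 to 1.01 in the other 53 pairs. Means and SDs therefore count 30Gy-1 and 30Gy-2 as 1 sample, so that n = 2 in control, 3 at 20 Gy, 2 at 30 Gy and 3 at 40 Gy, whereas the test uses all 11 libraries. The 20 and 30 Gy libraries also grouped across dose. Over the 4806 genes, 20Gy-1 had 0.305 and 0.315 against 20Gy-3 and 30Gy-3. 20Gy-2 had 0.323 and 0.352 against 30Gy-1 and 30Gy-2. Pairs between these sets had 0.543 to 0.642. Each of these doses thus held libraries of both sets, and the cause was not tested. Second, 40Gy-1 stood apart from 40Gy-2 and 40Gy-3 and is shown separately. Over the matrix genes its spread was 1.39 and 1.41 against these libraries, but 0.822 against 30Gy-1. 40Gy-2 and 40Gy-3 were also far from the other groups, with 20Gy-3 the nearest at 1.08 and 1.09. Which of them is typical of 40 Gy is unknown, and fits without 40Gy-1 rest on the other 2 there. Calls were also made with 30Gy-1 and 30Gy-2 averaged and both 20Gy-3 and 30Gy-3 omitted (the de-duplicated fit), and with no other groups than those compared (the pairwise fit). The deposited FPKM summed to 520839 in 40Gy-1 and up to 949840 in 40Gy-3, and the number of reads behind the values is unknown.

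Matrix genes were mostly higher than control in the 20 and 30 Gy libraries and in 40Gy-1, with the highest median in 40Gy-1. On the log2(FPKM + 1) scale their median difference from the control mean was 0.443, 0.815 and 0.353 in the 20 Gy libraries and 0.629, 0.534 and 0.297 in the 30 Gy libraries. It was 1.15 in 40Gy-1, but 0.128 in 40Gy-2 and -0.0801 in 40Gy-3, against medians of all genes between -0.0556 and 0.0737 in every library. More than 2-fold above the control mean were 28 of the 48 in 40Gy-1, 11 to 19 in each 20 and 30 Gy library, and 8 and 7 in 40Gy-2 and 40Gy-3. More than 2-fold below it were 4 and 5 in 40Gy-2 and 40Gy-3, and 0 or 1 in each other library. These counts were not made over all genes. In the controls the median was -0.114 and 0.114.

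**Figure D1:**
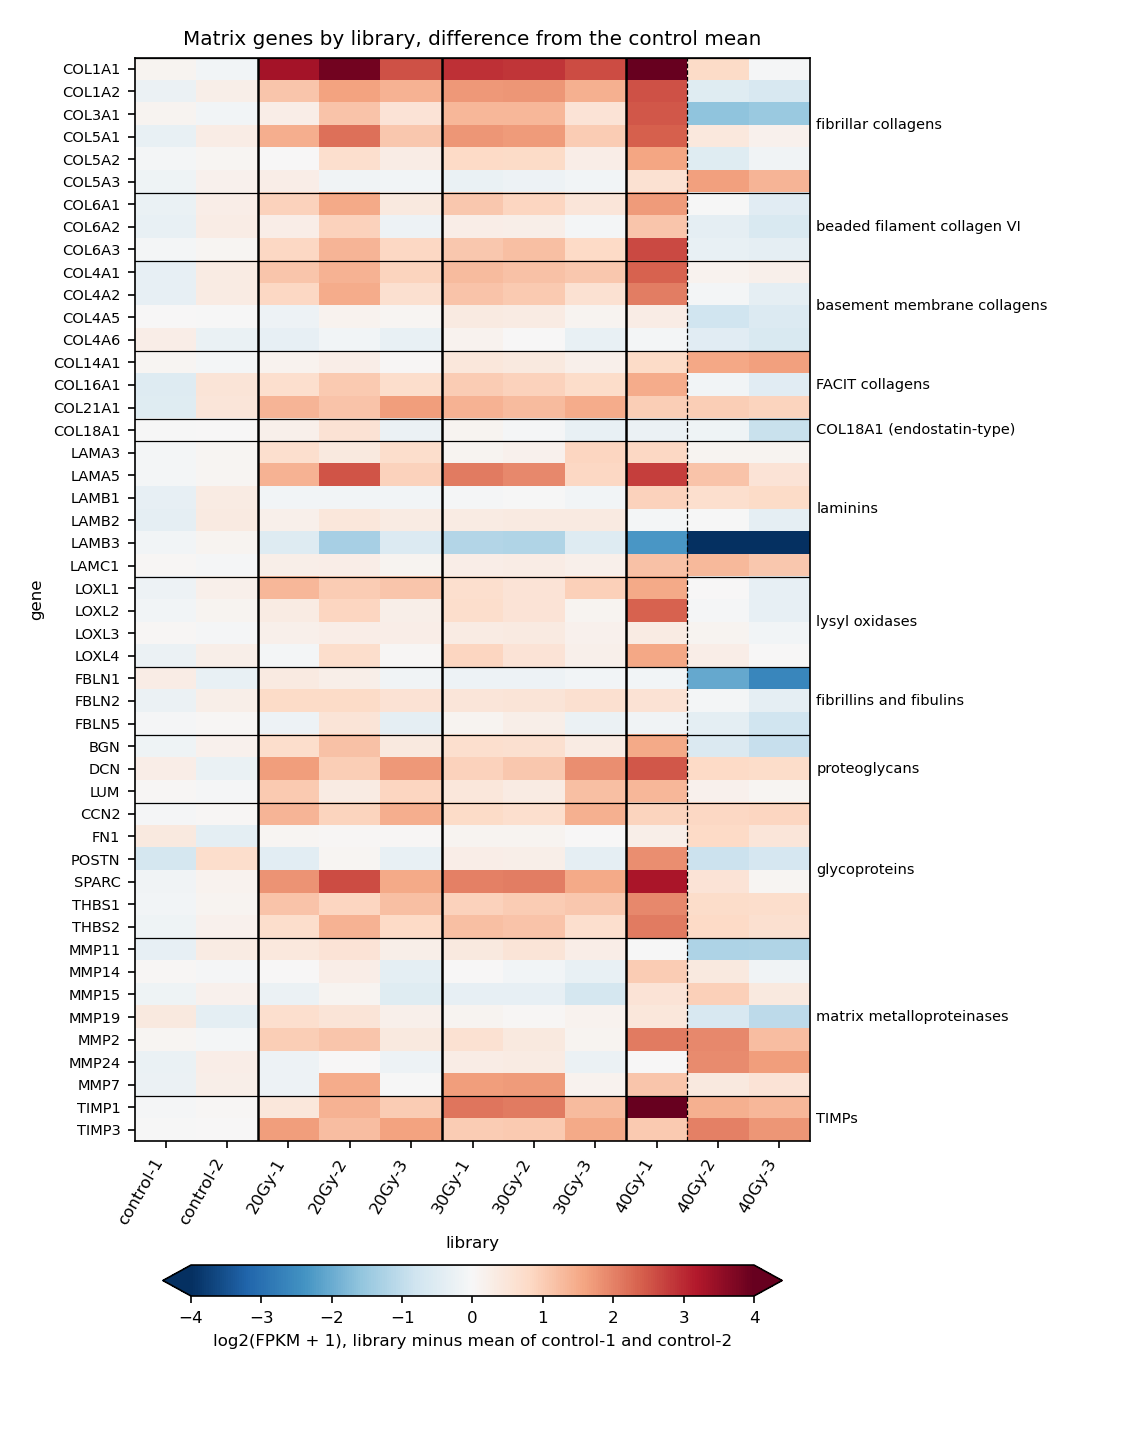
Heat map of the 48 matrix genes (rows, ordered by family) in the 11 libraries (columns), coloured by the log2(FPKM + 1) difference from the mean of the 2 controls; the colour scale ends in arrows where values run beyond it. Most of the 20 and 30 Gy columns are above control, 40Gy-1 is the strongest column, and 40Gy-2 and 40Gy-3 resemble each other, with many collagens at or below control and a few genes, among them COL14A1, COL5A3 and MMP24, above it.

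Few of these differences passed the test. In limma with Benjamini-Hochberg adjustment over all 11644 genes, 3 matrix genes rose at 20 Gy (6.25%, where 4.23% of all genes were called, 2.03% higher and 2.2% lower), 1 rose at 30 Gy (2.08%, where 3.03% were called, 1.32% higher and 1.71% lower), and 6 rose and 1 fell at 40 Gy (14.6%, where 7.39% were called, 2.99% higher and 4.41% lower). In the irradiated mean against control, 4 rose (8.33%, where 4.71% were called, 1.86% higher and 2.84% lower). At 40 Gy against the mean of 20 and 30 Gy, 7 rose and 3 fell (20.8%, where 21.5% were called, 11.8% higher and 9.71% lower), a share near that of all genes. The median log2 change of the 48 was 0.533, 0.539 and 0.534 at 20, 30 and 40 Gy, where that of all genes was -0.0295, -0.0226 and 0.0567. Higher than control were 39, 40 and 38 of the 48. Without 40Gy-1 the median at 40 Gy was 0.113 for the matrix genes and 0.046 for all genes.

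Separation of the groups was more common than calls. Every 20 Gy library was above both controls for 27 matrix genes (19.1% of all genes) and below both for 1 (23.2%). At 30 Gy the counts were 29 (20.1%) and 2 (23.3%), and at 40 Gy 17 (19.5%) and 3 (17.9%). All 9 irradiated libraries were above both controls for 12 matrix genes (5.42%) and below both for 1 (7.86%). Every 40 Gy library was above all 6 libraries of 20 and 30 Gy for 7 matrix genes (13% of all genes) and below them for 4 (10.8%).

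The spread of 40Gy-1 from its group entered the error of every comparison, because the groups share 1 estimate of it. Without that library, 14 matrix genes rose at 20 Gy (14.1% of all genes were called, 6.96% higher and 7.15% lower), 13 rose at 30 Gy (9.43%, with 4.71% in each direction), 11 rose and 5 fell at 40 Gy (22.9%, 11.6% higher and 11.3% lower), and 15 rose and 2 fell in the irradiated mean (12.2%, 5.44% higher and 6.72% lower). At 40 Gy against 20 and 30 Gy, 8 rose and 20 fell without it (39.8%, 21.7% higher and 18% lower), so that 41.7% of the matrix genes fell where 18% of all genes did. The log2 changes at 20 and 30 Gy were the same in both fits, and only their SE differed. That fit still counts the near-identical libraries separately. With these de-duplicated as well, a fit chosen after the data were seen, 12 rose at 20 Gy (5.14% of all genes were called), 1 rose at 30 Gy (0.756%), 8 rose and 4 fell at 40 Gy (14.7%), 10 rose and 1 fell in the irradiated mean (4.71%), and 7 rose and 20 fell at 40 Gy against 20 and 30 Gy (23.9%). It has 3 residual degrees of freedom and 1 sample at 30 Gy, which is assumed to vary like the other groups. COL1A1 was the gene called at 30 Gy (adjusted p = 0.025). Of the changes without 40Gy-1 that are given below, those of COL4A1, COL6A3, DCN, SPARC and TIMP1 at 30 Gy were not called there (adjusted p = 0.187, 0.147, 0.294, 0.082 and 0.0572), nor was that of COL4A5 at 40 Gy (adjusted p = 0.0778).

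Fibrillar collagens differed widely among libraries. COL1A1, the main chain of type I collagen (ENSSSCG00000036135, chromosome 12, 26379087 to 26397180 of Sscrofa11.1), was at 1.69 and 1.34 FPKM in the controls, 24.5, 35.6 and 13.6 at 20 Gy, 17.9, 17.1 and 14.2 at 30 Gy, and 139, 3.24 and 1.45 in 40Gy-1, 40Gy-2 and 40Gy-3. Every 20 and 30 Gy library was above both controls, 40Gy-1 was the highest of all, and 40Gy-3 lay between the controls, so that the 40 Gy libraries overlapped them. COL1A1 was not called in any comparison of all 11 libraries, with log2 change 3.25, SE 1.32, adjusted p = 0.185 at 20 Gy, log2 change 2.79, SE 1.32, adjusted p = 0.327 at 30 Gy and log2 change 2.18, SE 1.32, adjusted p = 0.34 at 40 Gy. Without 40Gy-1 it rose at 20 Gy (log2 change 3.25, SE 0.359, adjusted p = 0.000881) and 30 Gy (2.79, adjusted p = 0.00205), and 40Gy-2 and 40Gy-3 were lower than 20 and 30 Gy (-2.66, adjusted p = 0.000312).

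COL1A2, its partner chain, was at 3.61 and 5.39 FPKM in the controls, 10.7, 15.6 and 13.1 at 20 Gy, 17.1, 17.5 and 13.6 at 30 Gy, and 30.5, 2.89 and 2.49 in 40Gy-1, 40Gy-2 and 40Gy-3. It was above both controls in all 6 libraries of 20 and 30 Gy and below both in 40Gy-2 and 40Gy-3. The COL1A1 level per COL1A2 level was 0.468 and 0.249 in the controls, 0.975 to 2.29 at 20 and 30 Gy, 4.56 in 40Gy-1, and 1.12 and 0.583 in 40Gy-2 and 40Gy-3. COL3A1, the type III chain of reticular fibres (ENSSSCG00000016034, chromosome 15, 93556914 to 93595678), was at 19.9 and 17.2 FPKM in the controls, 22.4, 41.6 and 27.3 at 20 Gy, 47.97, 48.1 and 27.6 at 30 Gy, and 107, 5.45 and 6.04 in 40Gy-1, 40Gy-2 and 40Gy-3. In 40Gy-2 and 40Gy-3 it was below every other library, at about the same level in both, while 40Gy-1 was above every other. No comparison of all libraries called COL3A1 (log2 change -0.20, SE 0.980003, adjusted p = 0.927 at 40 Gy), and without 40Gy-1 it fell at 40 Gy against control (-1.53, adjusted p = 0.0105) and against 20 and 30 Gy (-2.39, adjusted p = 0.000214). FPKM summed over the 6 fibrillar chains was 28.9 and 29.8 in the controls, 62.8 to 111 at 20 and 30 Gy, 302 in 40Gy-1, and 20.5 and 17.7 in 40Gy-2 and 40Gy-3.

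Type V collagen, which nucleates and limits the width of collagen fibrils, split by chain. COL5A1 and COL5A2, a gene that overlaps WDR75, were at 1.62 to 16.1 and 0.836 to 6.72 FPKM, and both were highest in 40Gy-1. COL5A3 (ENSSSCG00000013667, chromosome 2, 68828197 to 68869914) was not, at 0.629 and 1.08 FPKM in the controls, 1.19, 0.657 and 0.701 at 20 Gy, 0.5196, 0.593 and 0.713 at 30 Gy, and 1.79, 4.69 and 3.698 in 40Gy-1, 40Gy-2 and 40Gy-3. All 3 libraries of 40 Gy were above the other 8, with 40Gy-1 the lowest of them. COL5A3 rose at 40 Gy against control (log2 change 1.19, SE 0.2802, adjusted p = 0.0316) and against 20 and 30 Gy (log2 change 1.29, SE 0.217, adjusted p = 0.00361). The COL5A3 call at 40 Gy was lost without either control, 30Gy-1, 30Gy-2, 40Gy-2 or 40Gy-3, with quantile normalization, with the replicate block, in the pairwise fit, with 30Gy-1 and 30Gy-2 averaged, without both 20Gy-3 and 30Gy-3 and in the de-duplicated fit (adjusted p = 0.00107 to 0.206 over 24 alternatives). That of COL5A3 against 20 and 30 Gy was lost in the de-duplicated fit (adjusted p = 0.000124 to 0.0894 over 24 alternatives).

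**Figure D2:**
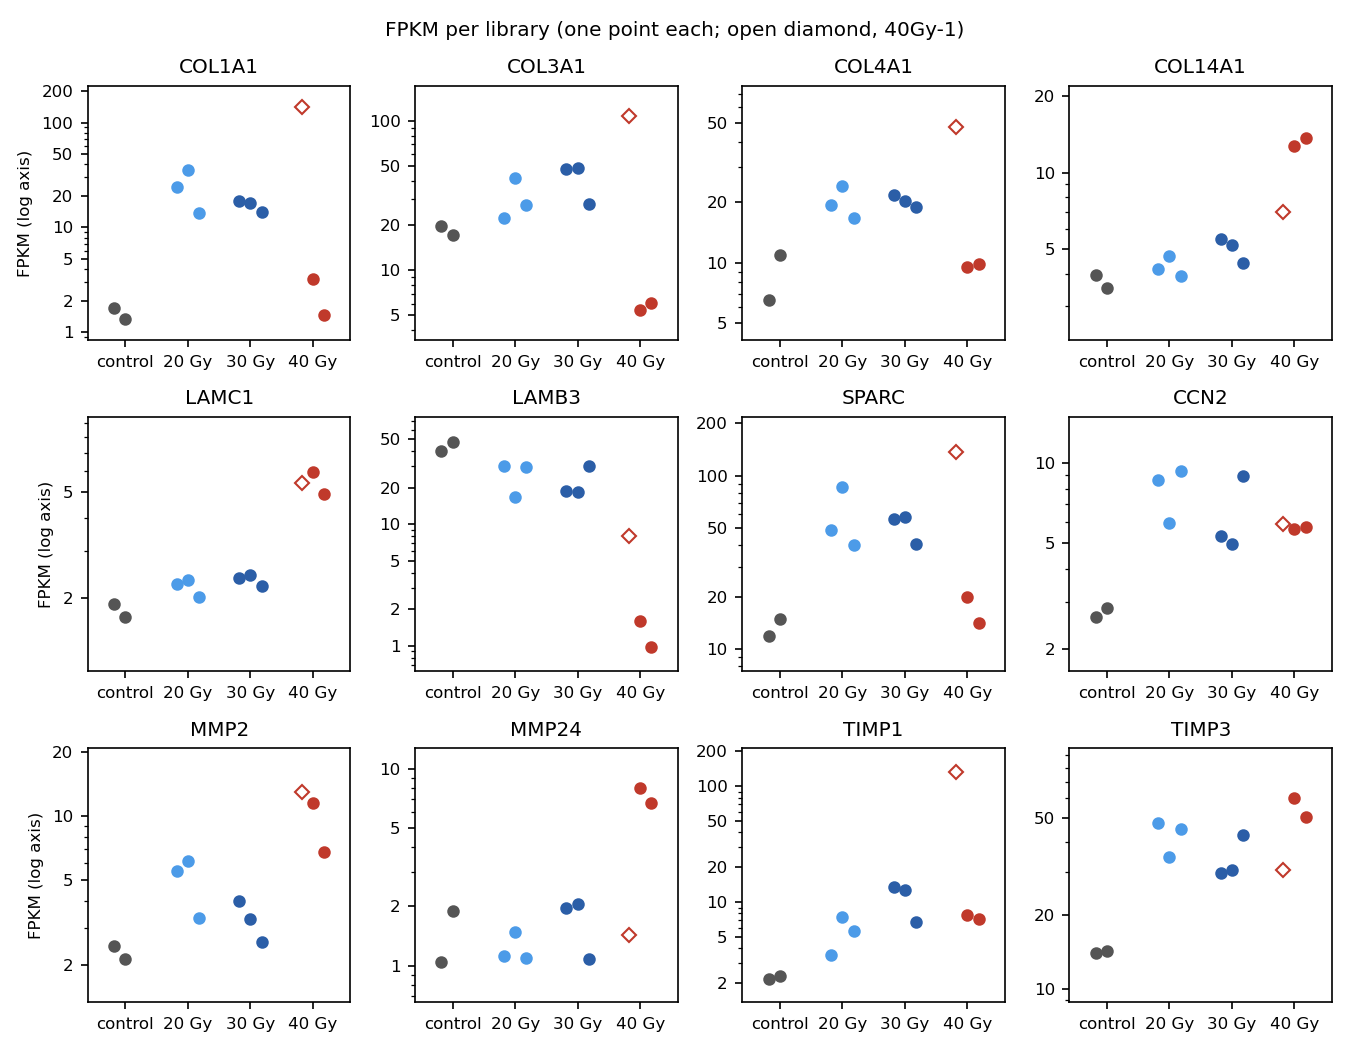
FPKM on a log axis for 12 of the matrix genes, 1 panel each, by group (control, 20, 30 and 40 Gy), with 1 point per library and an open diamond for 40Gy-1. COL1A1, COL3A1, COL4A1, SPARC and TIMP1 peak in 40Gy-1, COL14A1, MMP24 and TIMP3 peak in 40Gy-2 and 40Gy-3, and LAMB3 is lowest in those libraries.

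Of the type IV collagens of basement membranes, COL4A1 and COL4A2 were highest in 40Gy-1, COL4A5 in 30Gy-1 and COL4A6 in control-1, and none was called with all libraries (0 to 1 of the 4 at an unadjusted p under 0.05 in limma). COL4A1 and COL4A2, which overlap at their starts on chromosome 11, had similar levels. COL4A1 (ENSSSCG00000044700, chromosome 11, 76858332 to 76997409) was at 6.53 and 10.96 FPKM in the controls, 19.4, 24.1 and 16.7 at 20 Gy, 21.7, 20.2 and 18.95 at 30 Gy, and 47.7, 9.52 and 9.87 in 40Gy-1, 40Gy-2 and 40Gy-3. Each 20 and 30 Gy library and 40Gy-1 was above both controls, whereas 40Gy-2 and 40Gy-3 lay between them. The ratio of COL4A1 to COL4A2 was 0.954 and 0.981 in the controls and 0.920 to 1.49 in the irradiated libraries. COL4A5 and COL4A6, chains on the X chromosome, were at 0.341 to 1.97 and 0.299 to 1.38 FPKM, and 40Gy-2 and 40Gy-3 were below the other 9 libraries for both. Without 40Gy-1, COL4A1 rose at 20 Gy (1.14, adjusted p = 0.0107) and 30 Gy (1.16, adjusted p = 0.0121), and COL4A5 fell at 40 Gy against control (-0.67, adjusted p = 0.0255).

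Type VI chains, which anchor fibrils and cells to each other, ran from COL6A3 at 0.521 to 11.4 FPKM and COL6A2 at 4.098 to 15.8 up to COL6A1 at 6.44 to 31.5. COL6A1 (ENSSSCG00000022506) was highest in 40Gy-1 and lowest in 40Gy-3. COL6A3 (ENSSSCG00000027331, chromosome 15, 137011549 to 137103687) was above both controls in every library of 20 and 30 Gy, reached 11.4 in 40Gy-1 and was at 0.612 and 0.521 in 40Gy-2 and 40Gy-3, below both controls. Without 40Gy-1 it rose at 20 Gy (1.01, adjusted p = 0.012) and 30 Gy (1.03, adjusted p = 0.0137) and fell in 40Gy-2 and 40Gy-3 against 20 and 30 Gy (-1.35, adjusted p = 0.000503).

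Among the collagens that decorate fibrils (FACIT collagens), COL14A1 and COL21A1 were called and COL16A1 was not. COL14A1 (ENSSSCG00000005997, chromosome 4, 18690197 to 18925111), which binds to the surface of collagen fibrils, was at 3.97 and 3.52 FPKM in the controls, 4.202, 4.703 and 3.94 at 20 Gy, 5.52, 5.204 and 4.43 at 30 Gy, and 7.03, 12.7 and 13.7 in 40Gy-1, 40Gy-2 and 40Gy-3. All 40 Gy libraries were above the other 8, and here 40Gy-1 was the lowest of the 3. At a mean of 11.15 ± 3.598 FPKM against 3.74 ± 0.321 in control (SD, n = 3 and 2), COL14A1 rose at 40 Gy (log2 change 1.31, SE 0.245, adjusted p = 0.0124), and it rose against 20 and 30 Gy (log2 change 1.06, SE 0.189, adjusted p = 0.00482). Without 40Gy-1 these changes were 1.58, adjusted p = 0.000213, and 1.33, adjusted p = 7.96e-05. The COL14A1 call at 40 Gy was lost without either control, in the pairwise fit and in the de-duplicated fit (adjusted p = 0.000213 to 0.156 over 24 alternatives). That of COL14A1 against 20 and 30 Gy was lost in the de-duplicated fit (adjusted p = 7.96e-05 to 0.121 over 24 alternatives).

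COL21A1, a collagen of vessel walls (ENSSSCG00000001500, chromosome 7, 29414851 to 29609039), was at 0.112 and 1.21 FPKM in the controls, 3.06, 2.43 and 3.96 at 20 Gy, 3.11, 2.76 and 3.41 at 30 Gy, and 2.12, 2.07 and 1.91 in 40Gy-1, 40Gy-2 and 40Gy-3. Each irradiated library was above both controls, which differed from each other more than the 40 Gy libraries did. COL21A1 rose at 20 Gy (log2 change 1.39, SE 0.267, adjusted p = 0.0189), at 30 Gy (log2 change 1.38, SE 0.267, adjusted p = 0.0243) and in the irradiated mean (log2 change 1.24, SE 0.229, adjusted p = 0.0154). The COL21A1 call at 20 Gy was lost without control-1, 20Gy-1 or 20Gy-3, in the pairwise fit, without both 20Gy-3 and 30Gy-3, in the de-duplicated fit and in the de-duplicated fit without 40Gy-1 (adjusted p = 0.0106 to 0.19 over 24 alternatives). That of COL21A1 at 30 Gy was lost without control-1 or any 30 Gy library, with the replicate block, in the pairwise fit, with 30Gy-1 and 30Gy-2 averaged, without both 20Gy-3 and 30Gy-3, in the de-duplicated fit and in the de-duplicated fit without 40Gy-1 (adjusted p = 0.0125 to 0.599 over 24 alternatives). That of COL21A1 in the irradiated mean was lost without control-1, in the de-duplicated fit and in the de-duplicated fit without 40Gy-1 (adjusted p = 0.0102 to 0.154 over 23 alternatives). Without control-1 its changes shrank to 0.89, 0.89 and 0.75. COL16A1 was at 0.239 to 3.97 FPKM and highest in 40Gy-1. COL18A1, the source of endostatin (ENSSSCG00000038089, chromosome 13, 207907835 to 207984082), was the most abundant collagen at 167 to 469.8 FPKM, with 309 and 313 in the controls and the lowest value in 40Gy-3. It was not called (log2 change -0.44, SE 0.302, adjusted p = 0.406 at 40 Gy).

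Laminin chains, the cross-shaped trimers of basement membranes, moved in opposite directions at 40 Gy: LAMC1 and LAMB1 rose and LAMB3 fell. LAMC1, the gamma chain of most laminins (ENSSSCG00000015555, chromosome 9, 124283668 to 124405967), was at 1.9003 and 1.704 FPKM in the controls, 2.26, 2.33 and 2.02 at 20 Gy, 2.39, 2.44 and 2.22 at 30 Gy, and 5.37, 5.94 and 4.92 in 40Gy-1, 40Gy-2 and 40Gy-3. The 40 Gy libraries lay close together and above all others, and every 20 and 30 Gy library was above both controls. LAMC1 rose at 40 Gy (log2 change 1.19, SE 0.144, adjusted p = 0.00206), in the irradiated mean (log2 change 0.55, SE 0.123, adjusted p = 0.0339) and against 20 and 30 Gy (log2 change 0.97, SE 0.111, adjusted p = 0.00053). LAMB1 (ENSSSCG00000015444, chromosome 9, 107670120 to 107747242), a beta chain that pairs with LAMC1, was at 2.42 and 4.42 FPKM in the controls, 3.03, 3.02 and 2.97 at 20 Gy, 3.17, 3.26 and 2.98 at 30 Gy, and 7.102, 5.87 and 6.26 in 40Gy-1, 40Gy-2 and 40Gy-3. The 40 Gy libraries were again above all others. LAMB1 rose at 40 Gy against control (log2 change 0.78, SE 0.194, adjusted p = 0.0393) and against 20 and 30 Gy (log2 change 0.86, SE 0.1501, adjusted p = 0.00434).

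LAMB3, the beta chain of the epithelial laminin-332 (ENSSSCG00000015618, chromosome 9, 133298009 to 133351162), was at 39.95 and 47.6 FPKM in the controls, 30.4, 16.7 and 29.6 at 20 Gy, 18.7, 18.3 and 30.1 at 30 Gy, and 7.95, 1.598 and 0.984 in 40Gy-1, 40Gy-2 and 40Gy-3. Controls were the highest, 20 and 30 Gy libraries intermediate and the 40 Gy libraries the lowest, with no overlap between these 3 sets. At 40 Gy the mean was 3.51 ± 3.86 FPKM against 43.8 ± 5.42 in control, and LAMB3 fell (log2 change -3.64, SE 0.548, adjusted p = 0.00516). Against 20 and 30 Gy it fell too (log2 change -2.76, SE 0.425, adjusted p = 0.00247). LAMA3, an alpha chain of epithelial laminins, was at 0.327 to 1.53 FPKM. LAMA5 of vascular and epithelial basement membranes was at 4.94 to 42.1 FPKM, above both controls in every irradiated library, and LAMB2 at 2.14 to 4.63. The LAMC1 call at 40 Gy was lost in the pairwise fit (adjusted p = 0.000633 to 0.1 over 24 alternatives). That of LAMC1 in the irradiated mean was lost without any single library other than 40Gy-1 and 40Gy-3, with quantile normalization, with 30Gy-1 and 30Gy-2 averaged, without both 20Gy-3 and 30Gy-3, in the de-duplicated fit and in the de-duplicated fit without 40Gy-1 (adjusted p = 0.0136 to 0.251 over 23 alternatives). That of LAMC1 against 20 and 30 Gy was lost in the de-duplicated fit (adjusted p = 0.000283 to 0.0516 over 24 alternatives). The LAMB1 call at 40 Gy was lost without any single library other than control-2 and 40Gy-1, with quantile normalization, with median scaling, with the replicate block, in the pairwise fit, with 30Gy-1 and 30Gy-2 averaged, without both 20Gy-3 and 30Gy-3, in the de-duplicated fit and in the de-duplicated fit without 40Gy-1 (adjusted p = 0.0197 to 0.257 over 24 alternatives). That of LAMB1 against 20 and 30 Gy was lost in the de-duplicated fit (adjusted p = 0.00169 to 0.118 over 24 alternatives). Its change at 40 Gy was 0.45 without control-1. The LAMB3 call at 40 Gy was lost in the pairwise fit (adjusted p = 6.66e-05 to 0.111 over 24 alternatives). That of LAMB3 against 20 and 30 Gy was lost in the de-duplicated fit (adjusted p = 3.71e-05 to 0.0755 over 24 alternatives).

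Lysyl oxidases, which oxidise lysines so that collagen and elastin cross-link, were low and not called in any comparison of all libraries. The 4 members over the minimum were LOXL1, LOXL2, LOXL3 (which overlaps HTRA2) and LOXL4, and LOX itself stayed under it. LOXL1 (ENSSSCG00000001914, chromosome 7, 59481410 to 59505161) was at 0.1604 and 0.548 FPKM in the controls, 2.39, 1.73 and 1.89 at 20 Gy, 1.14, 0.9497 and 1.62 at 30 Gy, and 2.87, 0.352 and 0.07304 in 40Gy-1, 40Gy-2 and 40Gy-3. All 6 libraries of 20 and 30 Gy and 40Gy-1 were above both controls, and 40Gy-2 and 40Gy-3 were not. Without 40Gy-1, LOXL1 rose at 20 Gy (1.16, adjusted p = 0.00643). LOXL2 (ENSSSCG00000033608, chromosome 14, 7435861 to 7540699) was at 6.87 FPKM in 40Gy-1 and at 0.231 to 1.79 in the other 10 libraries.

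Small proteoglycans and fibulins organise fibrils and elastic fibres. Biglycan, BGN (ENSSSCG00000012766, chromosome X, 124282048 to 124295450), was the most abundant of the proteoglycans, at 44.2 and 56.6 FPKM in the controls, 82.9, 113 and 66.03 at 20 Gy, 79.6, 78.9 and 62.9 at 30 Gy, and 145, 33.1 and 26.03 in 40Gy-1, 40Gy-2 and 40Gy-3. It was highest in 40Gy-1 and below every other library in 40Gy-2 and 40Gy-3. Decorin, DCN (ENSSSCG00000000915, chromosome 5, 91678601 to 91713925), was at 2.02 and 1.07 FPKM in the controls, 7.002, 3.98 and 7.25 at 20 Gy, 3.76, 4.32 and 8.0997 at 30 Gy, and 12.9, 3.31 and 3.15 in 40Gy-1, 40Gy-2 and 40Gy-3. Every irradiated library was above both controls, and without 40Gy-1 DCN rose at 20 Gy (1.46, adjusted p = 0.0182) and 30 Gy (1.29, adjusted p = 0.0356). Lumican, LUM, stayed at 0.1001 to 1.897 FPKM. With all libraries none of the 3 was called at 40 Gy, where 1 had an unadjusted p under 0.05.

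Fibulin-1, FBLN1, a glycoprotein of elastic fibres and basement membranes (ENSSSCG00000000010, chromosome 5, 3839498 to 3927178), was at 111 and 72.04 FPKM in the controls, 115, 106 and 81.1 at 20 Gy, 77.5, 77.7 and 82.6 at 30 Gy, and 83.5, 20.7 and 13.7 in 40Gy-1, 40Gy-2 and 40Gy-3. 40Gy-2 and 40Gy-3 were below all other libraries, while 40Gy-1 lay within the range of the lower doses. FBLN1 fell at 40 Gy against 20 and 30 Gy (log2 change -1.58, SE 0.4495, adjusted p = 0.0328), with overlap between these groups, and without 40Gy-1 it fell further (-2.33, adjusted p = 8.96e-05). The FBLN1 call against 20 and 30 Gy was lost without 20Gy-1, 20Gy-3, any 30 Gy library, 40Gy-2 or 40Gy-3, with 30Gy-1 and 30Gy-2 averaged, without both 20Gy-3 and 30Gy-3 and in the de-duplicated fit (adjusted p = 8.96e-05 to 0.212 over 24 alternatives). FBLN2 was at 0.277 to 1.78 FPKM and FBLN5, which overlaps TRIP11, at 4.46 to 12.6.

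CCN2, the connective tissue growth factor that acts beside TGF-beta, rose at 20 Gy and in the irradiated mean. CCN2 (ENSSSCG00000004192, chromosome 1, 31674398 to 31677697) was at 2.64 and 2.85 FPKM in the controls, 8.67, 5.94 and 9.32 at 20 Gy, 5.35, 4.97 and 8.97 at 30 Gy, and 5.91, 5.67 and 5.76 in 40Gy-1, 40Gy-2 and 40Gy-3. All 9 irradiated libraries were above both controls and the 40 Gy libraries hardly differed from each other. Its mean was 2.74 ± 0.145 FPKM in control, 7.98 ± 1.79 at 20 Gy, 7.06 ± 2.698 at 30 Gy and 5.78 ± 0.123 at 40 Gy. CCN2 rose at 20 Gy (log2 change 1.24, SE 0.244, adjusted p = 0.0203) and in the irradiated mean (log2 change 1.02, SE 0.209, adjusted p = 0.0238), whereas the change at 40 Gy missed the threshold (log2 change 0.86, SE 0.244, adjusted p = 0.0613). The CCN2 call at 20 Gy was lost without either control, 20Gy-1 or 20Gy-3 and in the de-duplicated fit (adjusted p = 0.0086 to 0.12 over 24 alternatives). That of CCN2 in the irradiated mean was lost without either control or 20Gy-1 and in the de-duplicated fit (adjusted p = 0.0158 to 0.178 over 23 alternatives).

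Other matrix glycoproteins were less uniform. SPARC, a collagen-binding protein (ENSSSCG00000017082, chromosome 16, 71368164 to 71380972), was at 11.97 and 14.9 FPKM in the controls, 48.8, 86.4 and 39.8 at 20 Gy, 56.5, 58.2 and 40.4 at 30 Gy, and 136, 19.96 and 14.2 in 40Gy-1, 40Gy-2 and 40Gy-3. It was above both controls in each 20 and 30 Gy library and highest in 40Gy-1, and 40Gy-3 lay between the controls. SPARC was not called with all libraries (log2 change 1.97, SE 0.755, adjusted p = 0.163 at 20 Gy), and without 40Gy-1 it rose at 20 Gy (1.97, adjusted p = 0.00527) and 30 Gy (1.86, adjusted p = 0.00823) and was lower in 40Gy-2 and 40Gy-3 than at those doses (-1.60, adjusted p = 0.00245). Fibronectin, FN1 (ENSSSCG00000016174, chromosome 15, 117658158 to 117737145), which hepatocytes also secrete into plasma, was at 342 and 195 FPKM in the controls, 271, 269.7 and 265 at 20 Gy, 279.9, 281 and 263 at 30 Gy, and 306, 451 and 364 in 40Gy-1, 40Gy-2 and 40Gy-3. The controls spanned the values of 20 and 30 Gy, and 40Gy-2 and 40Gy-3 were above the other 9 libraries. THBS1, an activator of latent TGF-beta, was at 0.529 to 5.37 FPKM and THBS2 at 0.715 to 7.19, each above both controls in all 9 irradiated libraries. Periostin, POSTN, was at 35.9 in 40Gy-1 and 4.66 to 15.5 elsewhere.

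Of the metalloproteinases that cleave matrix, MMP2, MMP15 and MMP24 rose at 40 Gy against the lower doses and MMP11 fell. MMP2, a gelatinase made by stellate cells and fibroblasts (ENSSSCG00000002829, chromosome 6, 30059247 to 30087031), was at 2.46 and 2.15 FPKM in the controls, 5.499, 6.16 and 3.32 at 20 Gy, 4.005, 3.297 and 2.58 at 30 Gy, and 12.99, 11.5 and 6.76 in 40Gy-1, 40Gy-2 and 40Gy-3. The 40 Gy libraries were above all others, and 40Gy-1 was the highest. MMP2 had a mean of 10.4 ± 3.25 FPKM at 40 Gy against 2.31 ± 0.222 in control, and rose against control (log2 change 1.75, SE 0.291, adjusted p = 0.00787) and against 20 and 30 Gy (log2 change 1.15, SE 0.226, adjusted p = 0.00735). The MMP2 call at 40 Gy was lost without either control and in the pairwise fit (adjusted p = 0.00284 to 0.11 over 24 alternatives). That of MMP2 against 20 and 30 Gy was lost in the de-duplicated fit (adjusted p = 0.00149 to 0.118 over 24 alternatives).

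MMP15, a membrane-bound metalloproteinase (ENSSSCG00000002806, chromosome 6, 19890867 to 19912941), was at 5.48 and 7.25 FPKM in the controls, 5.19, 6.82 and 4.22 at 20 Gy, 4.84, 4.76 and 3.46 at 30 Gy, and 9.79, 13.2 and 8.65 in 40Gy-1, 40Gy-2 and 40Gy-3. The 40 Gy libraries were above all others, and the change against 20 and 30 Gy was called (log2 change 0.98, SE 0.186, adjusted p = 0.0064) but that against control was not (log2 change 0.64, SE 0.2397, adjusted p = 0.131). MMP24, another membrane-bound member (ENSSSCG00000040160, chromosome 17, 38587230 to 38636628), was at 1.04 and 1.89 FPKM in the controls, 1.12, 1.48 and 1.096 at 20 Gy, 1.97, 2.06 and 1.08 at 30 Gy, and 1.43, 7.96 and 6.67 in 40Gy-1, 40Gy-2 and 40Gy-3. It was high in 40Gy-2 and 40Gy-3 alone, and 40Gy-1, within the range of the other doses, was more than 2-fold below both. MMP24 rose against 20 and 30 Gy (log2 change 1.18, SE 0.362, adjusted p = 0.0429; 1.77, adjusted p = 0.000189 without 40Gy-1) with overlap between the groups, and without 40Gy-1 against control as well (1.77, adjusted p = 0.00114). MMP11, stromelysin-3 (ENSSSCG00000010071, chromosome 14, 49907684 to 49917494), was at 4.19 and 7.303 FPKM in the controls, 7.82, 8.51 and 6.71 at 20 Gy, 7.66, 8.48 and 6.91 at 30 Gy, and 5.47, 1.79 and 1.86 in 40Gy-1, 40Gy-2 and 40Gy-3. 40Gy-2 and 40Gy-3 were below every other library. It fell against 20 and 30 Gy (log2 change -1.22, SE 0.269, adjusted p = 0.0122).

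The MMP15 call against 20 and 30 Gy was lost in the de-duplicated fit (adjusted p = 0.00211 to 0.127 over 24 alternatives). The MMP24 call against 20 and 30 Gy was lost without any single library other than 40Gy-1, with quantile normalization, with median scaling, in the pairwise fit, with 30Gy-1 and 30Gy-2 averaged, without both 20Gy-3 and 30Gy-3 and in the de-duplicated fit (adjusted p = 0.000189 to 0.279 over 24 alternatives). The MMP11 call against 20 and 30 Gy was lost without 40Gy-2 or 40Gy-3 and in the de-duplicated fit (adjusted p = 0.000214 to 0.132 over 24 alternatives). MMP19 (ENSSSCG00000000368, chromosome 5, 21279514 to 21285943), a secreted metalloproteinase, was the most abundant of this family, at 80.5 and 46.3 FPKM in the controls, 98.3, 86.8 and 69.8 at 20 Gy, 66.7, 63.7 and 67.5 at 30 Gy, and 84.6, 39.3 and 28.9 in 40Gy-1, 40Gy-2 and 40Gy-3. It was lowest in 40Gy-2 and 40Gy-3 and not called (log2 change -0.41, SE 0.399, adjusted p = 0.567 at 40 Gy). MMP14, which activates pro-MMP2 at the cell surface, was at 17.5 to 48.5 FPKM and highest in 40Gy-1. MMP7, an epithelial matrilysin, was at 36.7, 42.2 and 42.6 FPKM in 20Gy-2, 30Gy-1 and 30Gy-2, 28.2 in 40Gy-1, and 10.5 to 18.6 in the other 7 libraries.

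TIMP1 and TIMP3, inhibitors of the metalloproteinases, were above both controls in all 9 irradiated libraries. Among the 40 Gy libraries, 40Gy-1 was the highest for TIMP1 and the lowest for TIMP3. TIMP3, which binds to the matrix (ENSSSCG00000031866, chromosome 5, 12185816 to 12242599) and overlaps SYN3, was at 14.04 and 14.3 FPKM in the controls, 47.8, 34.6 and 44.8 at 20 Gy, 29.8, 30.7 and 42.6 at 30 Gy, and 30.6, 60.4 and 50.3 in 40Gy-1, 40Gy-2 and 40Gy-3. The highest levels were in 40Gy-2 and 40Gy-3, with 20Gy-1 close behind. TIMP3 rose from 14.2 ± 0.191 FPKM to 42.4 ± 6.92 at 20 Gy (log2 change 1.5, SE 0.2896, adjusted p = 0.0189) and 47.1 ± 15.1 at 40 Gy (log2 change 1.61, SE 0.2896, adjusted p = 0.0111), and in the irradiated mean (log2 change 1.44, SE 0.248, adjusted p = 0.0108). At 30 Gy its mean was 36.4 ± 8.74 and the change missed the threshold (log2 change 1.2, SE 0.2896, adjusted p = 0.0561). The TIMP3 call at 20 Gy was lost without either control, 20Gy-1 or 20Gy-3, without both 20Gy-3 and 30Gy-3 and in the de-duplicated fit (adjusted p = 0.00243 to 0.167 over 24 alternatives). That of TIMP3 at 40 Gy was lost without either control, in the pairwise fit and in the de-duplicated fit (adjusted p = 0.000718 to 0.127 over 24 alternatives). That of TIMP3 in the irradiated mean was lost without either control and in the de-duplicated fit (adjusted p = 0.00102 to 0.12 over 23 alternatives).

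TIMP1 (ENSSSCG00000012277, chromosome X, 42103251 to 42106289), a soluble inhibitor made by activated stellate cells that overlaps SYN1, was at 2.19 and 2.33 FPKM in the controls, 3.48, 7.47 and 5.65 at 20 Gy, 13.4, 12.8 and 6.81 at 30 Gy, and 134, 7.71 and 7.16 in 40Gy-1, 40Gy-2 and 40Gy-3. All irradiated libraries were above both controls, and 40Gy-1 was 18.01-fold above the mean of 40Gy-2 and 40Gy-3. It was not called with all libraries (log2 change 2.71, SE 0.981, adjusted p = 0.121 at 40 Gy). Without 40Gy-1 it rose at 30 Gy (1.83, adjusted p = 0.00749) and 40 Gy (1.37, adjusted p = 0.0195). The ratio of TIMP1 to TIMP3 was 0.156 and 0.163 in the controls, 0.0727 to 0.451 at 20 and 30 Gy, 4.37 in 40Gy-1, and 0.128 and 0.142 in 40Gy-2 and 40Gy-3.

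The 40 Gy libraries differed from each other in matrix genes. Of the 48 matrix genes, 26 were highest in 40Gy-1 among the 11 libraries (54.2%, against 16% of all genes), and 27 were more than 2-fold higher there than in the mean of 40Gy-2 and 40Gy-3 (56.2%, against 10.9%), on the FPKM + 1 scale. MMP24 alone was more than 2-fold lower (2.08%, against 7.25%). COL14A1, COL5A3, FN1, MMP24 and TIMP3 were above all other libraries in both 40Gy-2 and 40Gy-3 (10.4%, against 18.7%). In contrast, 13 were below all others in both (27.1%, against 13.9%): BGN, COL1A2, COL3A1, COL4A5, COL4A6, COL5A2, COL6A2, COL6A3, FBLN1, FBLN5, LAMB3, MMP11 and MMP19. COL1A1 was 59.4-fold and COL3A1 18.7-fold higher in 40Gy-1 than in that mean, as FPKM.

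**Figure D3:**
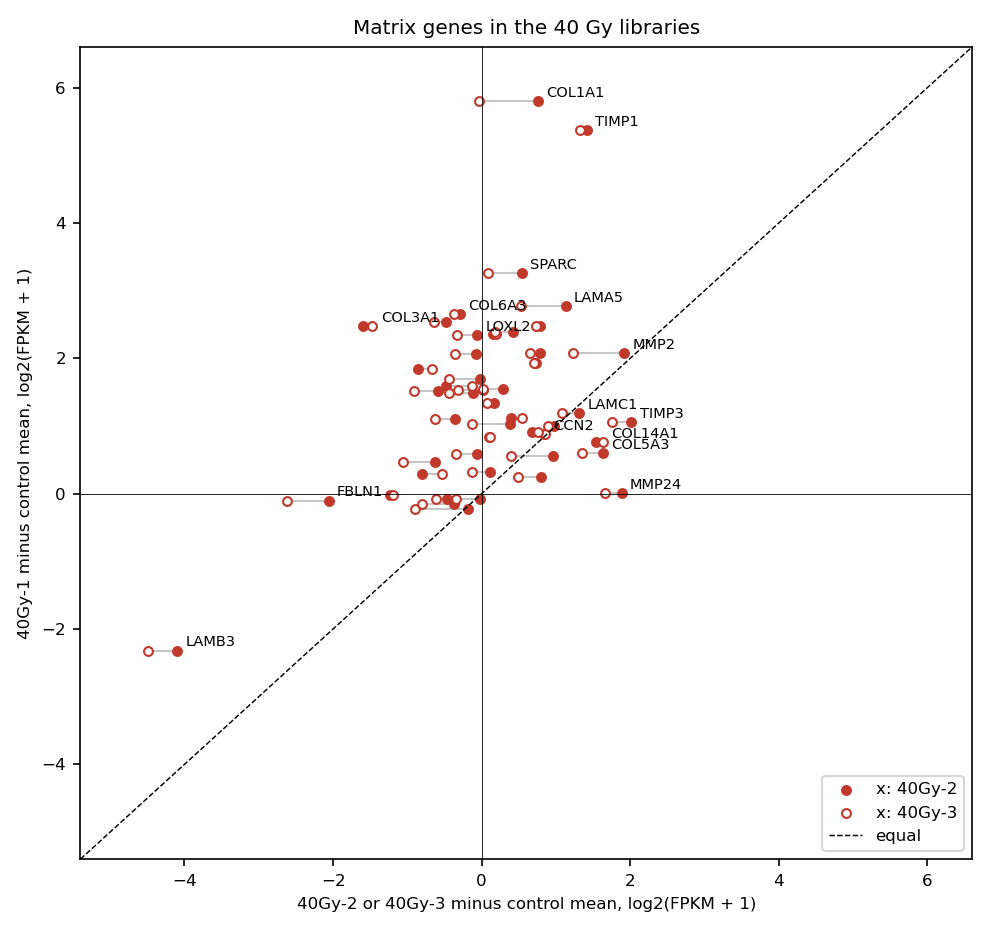
Difference from the control mean on the log2(FPKM + 1) scale for each of the 48 matrix genes, with 40Gy-1 on the vertical axis and 40Gy-2 (filled) and 40Gy-3 (open), joined by a line, on the horizontal axis; the dashed line marks equal values. COL1A1, TIMP1, SPARC and COL3A1 lie far above the dashed line, and MMP24, COL5A3, COL14A1 and TIMP3 lie below it.

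**Figure D4:**
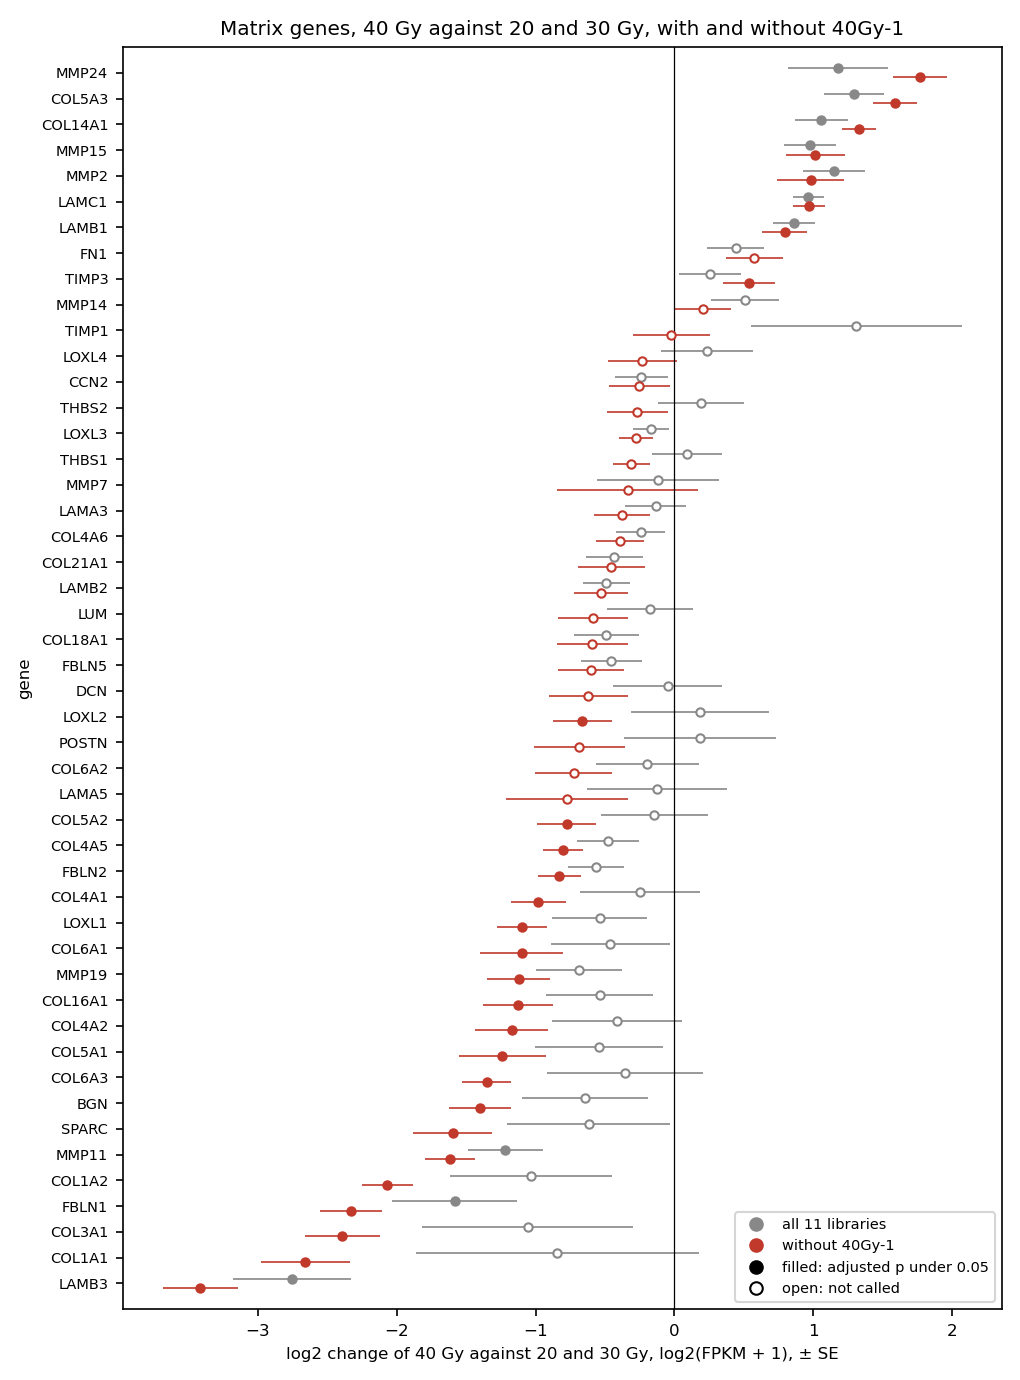
Log2 change of each matrix gene at 40 Gy against 20 and 30 Gy, on the log2(FPKM + 1) scale with the SE of the fit as bars, for all 11 libraries (grey) and without 40Gy-1 (red), filled where the adjusted p was under 0.05. LAMC1, LAMB1, MMP2, MMP15, COL14A1, COL5A3 and MMP24 lie to the right in both fits, and the collagen chains COL1A1, COL3A1 and COL1A2 move far to the left without 40Gy-1.

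Genes that make, sense or remodel matrix were followed as lists. For the calls of list genes that ended when 1 library was left out, these libraries are named with the highest adjusted p in parentheses. Leaving out 1 library of a near-identical pair keeps its partner in the fit. The calls of list genes were not checked gene by gene in the de-duplicated fit. A call that held may therefore still rest on the near-identical libraries. Of 19 measured genes of collagen maturation (hydroxylases, chaperones and procollagen proteinases), none was called by limma at 20, 30 or 40 Gy against control, where 3, 4 and 5 had an unadjusted p under 0.05. Against 20 and 30 Gy, P3H1 rose at 40 Gy (0.65, adjusted p = 0.023) and TMEM38B fell (-0.63, adjusted p = 0.0181), where 11.8% and 9.71% of all genes did. In 40Gy-1, however, the median of the list was 0.608 above control on the log2 scale, against -0.0950 and -0.246 in 40Gy-2 and 40Gy-3. Of 24 genes of TGF-beta and PDGF signalling, TGFBR1, a TGF-beta receptor, rose at 40 Gy (0.96, adjusted p = 0.0119) and TGFBR2 fell at 20 Gy (-1.18, adjusted p = 0.0178) and in the irradiated mean (-0.79, adjusted p = 0.0468). Of all genes, 2.99% rose at 40 Gy, and 2.2% and 2.84% fell at 20 Gy and in the irradiated mean. At 40 Gy against 20 and 30 Gy, where 11.8% of all genes rose and 9.71% fell, 5 of the 24 rose (SMAD7, SKIL, TGFBR1, TGFBR2 and TGFBR3) and 2 fell (INHBA and LTBP4). With each library left out in turn, the calls of TGFBR1, TGFBR2 and INHBA against 20 and 30 Gy held. P3H1 lost its call against 20 and 30 Gy without 30Gy-2 or 40Gy-2 (0.118), TMEM38B without 40Gy-2 or 40Gy-3 (0.0588) and TGFBR3 without any single library other than 40Gy-1 (0.188). SMAD7 lost its call against 20 and 30 Gy without 20Gy-1, 20Gy-3, any 30 Gy library, 40Gy-1 or 40Gy-2 (0.172), SKIL without 40Gy-2 or 40Gy-3 (0.0602) and LTBP4 without 20Gy-1, 30Gy-2, 30Gy-3, 40Gy-2 or 40Gy-3 (0.137). TGFBR1 lost its call at 40 Gy without either control (0.0744). TGFBR2 lost its call at 20 Gy without either control, 20Gy-1 or 20Gy-3 (0.134). TGFBR2 lost its call in the irradiated mean without any single library other than 20Gy-2 and 40Gy-1 (0.358).

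Of 15 targets and partners of the mechanosensitive YAP and TEAD factors, to which CCN2 also belongs, TEAD4 and ANKRD1 rose at every dose. Of all genes, 2.03%, 1.32% and 2.99% rose at 20, 30 and 40 Gy. TEAD4 rose by 2.10, adjusted p = 0.000263 at 20 Gy, 1.81, adjusted p = 0.000805 at 30 Gy and 0.74, adjusted p = 0.0329 at 40 Gy, and ANKRD1 by 1.38, adjusted p = 0.0338, 1.55, adjusted p = 0.0264 and 1.39, adjusted p = 0.0251. TEAD4 was lower at 40 Gy than at 20 and 30 Gy (-1.21, adjusted p = 0.000485). Of 16 matrix receptors, ITGB1, the beta integrin shared by most collagen and laminin receptors, rose at 40 Gy (0.90, adjusted p = 0.0167). Against 20 and 30 Gy, 6 of the 16 rose (11.8% of all genes): ITGB5 (1.48, adjusted p = 0.00329), ITGB1, ITGAV, ITGA1, ITGA9 and CD44. At 20 and 30 Gy none was called by limma, with 3 and 2 at an unadjusted p under 0.05. With each library left out in turn, the calls of TEAD4 at 20 Gy, TEAD4 at 30 Gy and TEAD4, ITGB5, ITGB1, ITGAV and CD44 against 20 and 30 Gy held. TEAD4 lost its call at 40 Gy without either control, 20Gy-1, 30Gy-1, 30Gy-2 or 40Gy-2 (0.206), ANKRD1 without either control or 40Gy-2 (0.148) and ITGB1 without either control or 40Gy-2 (0.101). ANKRD1 lost its call at 20 Gy without any single library other than 30Gy-3, 40Gy-1 and 40Gy-3 (0.2). ANKRD1 lost its call at 30 Gy without either control or any 30 Gy library (0.207). ITGA1 lost its call against 20 and 30 Gy without 40Gy-2 (0.0544) and ITGA9 without any single library other than 40Gy-1 (0.224).

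Of 31 other matrix proteins, ELN of elastic fibres (0.76, adjusted p = 0.039) and MFAP4 (2.22, adjusted p = 0.0293) rose at 20 Gy (2.03% of all genes). At 40 Gy against 20 and 30 Gy, VCAN and HAPLN3, which bind hyaluronan, rose (11.8% of all genes) and 6 fell (9.71%), among them MFAP4 (-1.82, adjusted p = 0.00819), the small proteoglycans PRELP (-1.48, adjusted p = 0.00936) and OGN (-0.73, adjusted p = 0.0311), and VTN (-1.07, adjusted p = 0.0063). EFEMP1 and DPT fell there as well. Of 16 proteases and inhibitors, ADAMTS1, which cleaves proteoglycans, rose at 20 Gy (1.58, adjusted p = 0.00809), 30 Gy (1.52, adjusted p = 0.0118) and 40 Gy (1.01, adjusted p = 0.042). CTSL, a lysosomal protease, fell at 20 Gy (-1.72, adjusted p = 0.00311) and 30 Gy (-1.47, adjusted p = 0.00757). At 40 Gy, A2M, a broad protease inhibitor, rose (2.10, adjusted p = 0.0274), as did the membrane proteases ADAM9 (0.92, adjusted p = 0.0131) and ADAM10 (0.67, adjusted p = 0.0475). Of all genes, 2.03%, 1.32% and 2.99% rose at 20, 30 and 40 Gy, and 2.2% and 1.71% fell at 20 and 30 Gy. Against 20 and 30 Gy, 5 of the 16 rose (11.8% of all genes), among them CTSL, A2M and ADAM9, and 1 fell (9.71%). ADAM10, CTSB and RECK were the rest of these called genes. With each library left out in turn, the calls of VTN, ADAM9, CTSL and A2M against 20 and 30 Gy and CTSL at 20 Gy held. VCAN lost its call against 20 and 30 Gy without 40Gy-2 (0.0853), HAPLN3 without 20Gy-1, 20Gy-3, any 30 Gy library, 40Gy-2 or 40Gy-3 (0.164) and MFAP4 without 40Gy-2 (0.0509). PRELP lost its call against 20 and 30 Gy without 40Gy-2 (0.0588) and OGN without 20Gy-1, 20Gy-3, 40Gy-2 or 40Gy-3 (0.116). ELN lost its call at 20 Gy without either control, 20Gy-1, 20Gy-3 or any 30 Gy library (0.219), MFAP4 without either control, 20Gy-1 or 20Gy-3 (0.179) and ADAMTS1 without control-1 (0.0739). ADAMTS1 lost its call at 30 Gy without either control, 30Gy-1 or 30Gy-2 (0.0934) and CTSL without either control (0.0692). ADAMTS1 lost its call at 40 Gy without any single library other than 20Gy-2, 40Gy-1 and 40Gy-3 (0.242), A2M without either control, 40Gy-2 or 40Gy-3 (0.189) and ADAM9 without either control (0.0866). ADAM10 lost its call at 40 Gy without any single library other than control-1 and 40Gy-1 (0.285). Against 20 and 30 Gy, CTSB lost its call without 40Gy-2 (0.0681), and ADAM10 and DPT without 40Gy-2 or 40Gy-3 (0.0739 and 0.0862). RECK lost its call there without any 20 or 30 Gy library, 40Gy-2 or 40Gy-3 (0.165). EFEMP1 lost its call there without any single library other than 20Gy-2 and 30Gy-1 (0.124).

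Markers of the cells that could make or surround the matrix were read in the same libraries. Over 22 stellate cell and myofibroblast markers the summed FPKM was 232 and 377 in the controls, 319.7 to 445 at 20 Gy, 315 to 395 at 30 Gy, 412 in 40Gy-1, and 202 and 187 in 40Gy-2 and 40Gy-3, below all others. TAGLN rose at 20 Gy (1.66, adjusted p = 0.04) and GFAP at 40 Gy (0.88, adjusted p = 0.0393), where 2.03% and 2.99% of all genes rose. At 40 Gy against 20 and 30 Gy, 5 of the 22 fell (CNN1, MYH11, MYL9, TPM2 and HHIP; 9.71% of all genes fell), and without 40Gy-1 15 fell and 1 rose (18% and 21.7% of all genes). ACTA2, the actin of activated stellate cells, was at 8.997 and 25.5 FPKM in the controls, 61.2, 57.7 and 46.2 at 20 Gy, 45.8, 45.4 and 39.6 at 30 Gy, and 45.1, 18.3 and 16.3 in 40Gy-1, 40Gy-2 and 40Gy-3. ACTA2 was not called in any comparison of all libraries. At 20 Gy and at 30 Gy, 15 of the 22 markers were higher than control and 7 lower, with medians of 0.394 and 0.376. At 40 Gy 7 were higher and 15 lower. The part of these markers in the matrix differences was not tested. With each library left out in turn, the calls of CNN1 and MYH11 against 20 and 30 Gy held. TAGLN lost its call at 20 Gy without any single library other than control-2, 40Gy-1 and 40Gy-3 (0.261). GFAP lost its call at 40 Gy without any single library other than 20Gy-2 and 40Gy-1 (0.194). MYL9 lost its call against 20 and 30 Gy without 20Gy-1, 30Gy-1, 30Gy-2, 40Gy-2 or 40Gy-3 (0.131), TPM2 without 20Gy-1, 20Gy-3, any 30 Gy library, 40Gy-2 or 40Gy-3 (0.143) and HHIP without 40Gy-2 (0.0579).

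Of 7 portal fibroblast and capsule markers, GLI1 fell at 20, 30 and 40 Gy (-2.29, adjusted p = 0.0192, -2.28, adjusted p = 0.0248 and -2.87, adjusted p = 0.00591). Of all genes, 2.2%, 1.71% and 4.41% fell there. ELN, also on this list, rose at 20 Gy. Most of the list was not lower: 5, 5 and 4 of the 7 were higher than control at 20, 30 and 40 Gy. Their median log2 changes were 0.112, 0.289 and 0.0585. Of 17 macrophage markers, SPI1, MARCO and GPNMB rose at 40 Gy (2.99% of all genes), 5 rose against 20 and 30 Gy (11.8% of all genes), and the summed FPKM was 1761 in 40Gy-1, 1246 and 1104 in 40Gy-2 and 40Gy-3, and 603 to 1234 in the other 8. Of 5 neutrophil markers, CSF3R and S100A12 rose at 40 Gy (2.99% of all genes). Of 19 endothelial markers, LYVE1 fell at 20 Gy (2.2% of all genes), and 2 rose and 1 fell at 40 Gy against 20 and 30 Gy (11.8% and 9.71%). Of 11 T and NK cell markers, CD3E, CD5, CD8A, LCK and CCL5 fell in that comparison (9.71% of all genes). Of 4 B and plasma cell markers, JCHAIN and MZB1 rose and CD79A fell at 40 Gy (2.99% and 4.41% of all genes). Of 9 bile duct markers, CLDN4 fell at 20 Gy (2.2% of all genes) and ANXA4 rose at 40 Gy against 20 and 30 Gy (11.8%). Of 17 hepatocyte markers, ALB (-2.06, adjusted p = 0.0045), TTR, APOC3 and ASGR1 fell at 40 Gy (4.41% of all genes). The part of these markers in the matrix differences was not tested either.

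Few of these marker calls held without each library. With each library left out in turn, the calls of ALB, SPI1 and JCHAIN at 40 Gy held. GLI1 lost its call at 20 Gy without control-2, 20Gy-1 or 20Gy-3 (0.166), LYVE1 without either control, 20Gy-1 or 20Gy-3 (0.14) and CLDN4 without either control, 30Gy-2, 30Gy-1, 40Gy-2, 20Gy-1 or 20Gy-3 (0.193). GLI1 lost its call at 30 Gy without control-2 or any 30 Gy library (0.222). GLI1 lost its call at 40 Gy without control-2 (0.0558), MARCO without any single library other than control-1, 30Gy-3 and 40Gy-1 (0.251) and GPNMB without control-1 (0.0639). CSF3R lost its call at 40 Gy without control-2 or 40Gy-2 (0.116), S100A12 without 40Gy-3, 40Gy-2, 30Gy-2, 30Gy-1, 20Gy-3 or control-2 (0.232) and MZB1 without either control (0.098). CD79A lost its call at 40 Gy without either control or 40Gy-2 (0.104), TTR without either control, 30Gy-1, 30Gy-2, 40Gy-2 or 40Gy-3 (0.213) and APOC3 without control-1 (0.0511). ASGR1 lost its call at 40 Gy without either control (0.104). ANXA4 lost its call against 20 and 30 Gy without 20Gy-1, 20Gy-3, 30Gy-3 or any 40 Gy library (0.0902), CD3E without 40Gy-2 (0.0573) and CD5 without any single library other than 30Gy-3 and 40Gy-1 (0.18). CD8A lost its call against 20 and 30 Gy without 20Gy-1, 20Gy-3, any 30 Gy library, 40Gy-2 or 40Gy-3 (0.171), LCK without 30Gy-1, 40Gy-2 or 40Gy-3 (0.119) and CCL5 without any single library other than 20Gy-2 and 40Gy-1 (0.18). Of the 5 macrophage markers that rose against 20 and 30 Gy, 2 held, as did 1 of the 3 endothelial calls there. Over all lists, 34 of 114 calls held in each of these fits. None of these fits removed both near-identical pairs.

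**Figure D5:**
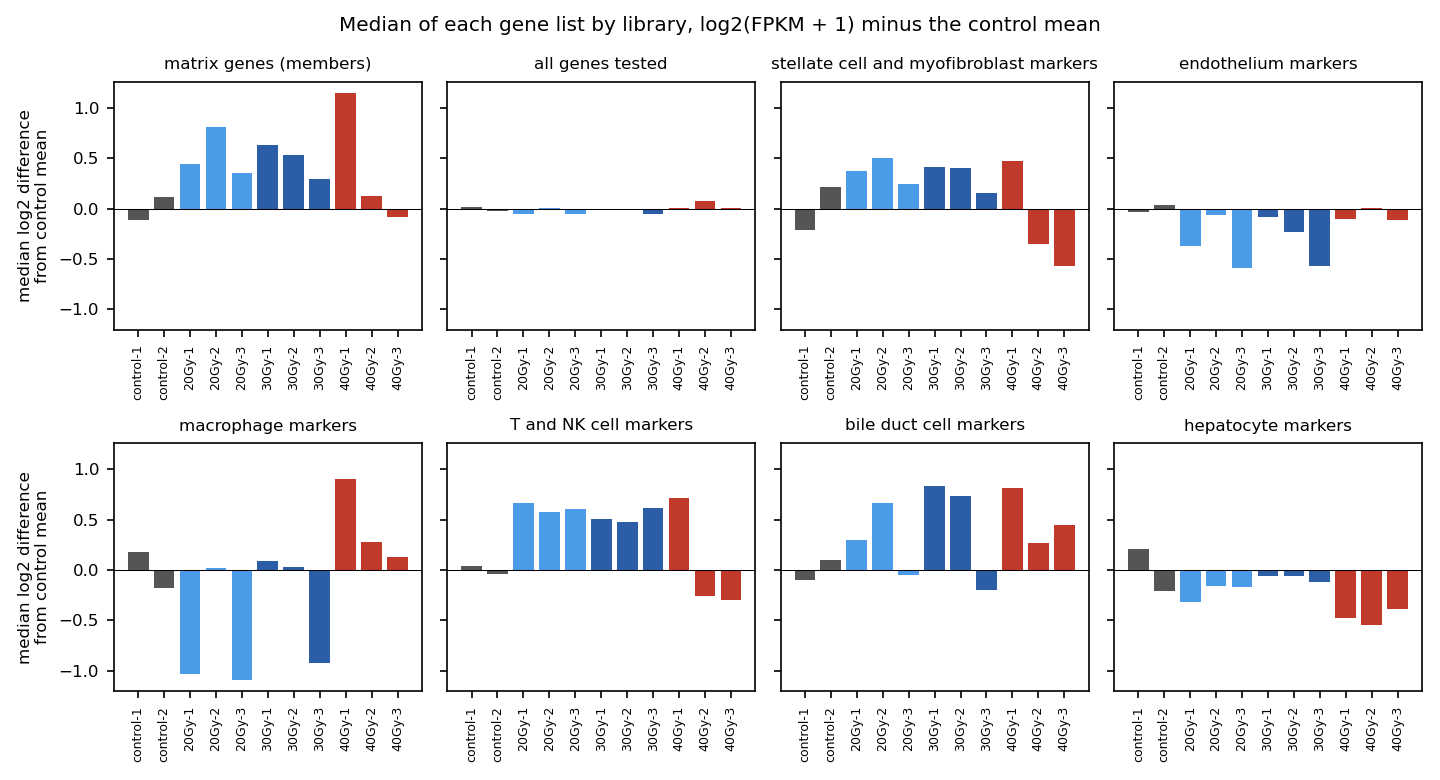
Median difference from the control mean, on the log2(FPKM + 1) scale, of the 48 matrix genes, of all genes tested and of 6 cell type marker lists, with 1 bar per library. The matrix genes and the stellate cell markers are above 0 in the 20 and 30 Gy libraries and in 40Gy-1, and the stellate cell and T and NK cell markers are below 0 in 40Gy-2 and 40Gy-3.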

How the data were processed

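RNA of 11 pig liver libraries was measured by paired-end sequencing, per the labels' protocols. The authors deposited 1 table of FPKM for 12505 genes, with 1 column per library. Per the submitters' processing notes, HISAT2, Cufflinks and HTSeq and the builds Sscrofa11.1 and mm10 were involved, with no role given, and the IDs are those of pig. The sources used here do not state strandedness, and overlapping genes may share reads. FPKM divides by gene length and by library total. The deposited FPKM hold no counts, which leaves read depth unknown and allows no counting intervals; the SD and SE among libraries are the only errors given.

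IDs were paired with symbols through a table of gene names (10561 of 12505). Coordinates come from a RefSeq gene table of Sscrofa11.1 matched by symbol, or by synonym for CCN2, and give the whole gene. Some genes whose names match the rule are not reported here.

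From the deposited FPKM, log2(FPKM + 1) was computed, so changes of low genes are understated. Genes that reached 1 FPKM in 2 or more libraries were fitted in limma 3.58.1 (R 4.3.3) with 4 group means over all 11 libraries, a mean-dependent prior variance and 7 residual df. Two-sided p-values had Benjamini-Hochberg adjustment over 11644 genes, and genes were called at an adjusted p under 0.05. The code was tested on simulated data. Named genes were COL1A1, COL14A1, MMP2 and CCN2, every matrix gene called, the most abundant and the most changed member (irradiated mean) of each family, and called genes of the pathway lists. Lists covered collagen maturation, TGF-beta and PDGF signalling, YAP and TEAD targets, matrix receptors, other matrix proteins, proteases and inhibitors, and markers of 9 cell types. The members and lists were chosen with earlier results of these data known. Alternatives were other pseudocounts, filters, scalings and fits, and each library left out in turn. A fit de-duplicated and without 40Gy-1 was added after the data were seen. ACTA2 and the defining cell type markers were named after their values were seen.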

Additional observations from a re-analysis of the deposited data

How the results depend on the processing

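The counts of matrix genes called moved by at most 1.5 times with the pseudocount, the filter, the scaling and the variance trend, where they were 3, 1, 5 to 9, 3 to 6 and 10 to 11 at 20, 30 and 40 Gy, in the irradiated mean and at 40 Gy against 20 and 30 Gy, beside 3, 1, 7, 4 and 10. Over all alternatives, 466 of 596 values of the 25 called changes stayed called in the same direction, and 0 changed sign. With each library left out in turn, the counts ran from 0 to 14 at 20 Gy, 0 to 13 at 30 Gy, 2 to 16 at 40 Gy, 0 to 17 in the irradiated mean and 7 to 28 at 40 Gy against 20 and 30 Gy. Over all genes they ran from 132 to 1643, 87 to 1098, 237 to 2663, 99 to 1415 and 851 to 4630. The highest counts were all without 40Gy-1. The lowest counts of matrix genes were without control-1, 20Gy-1 or 20Gy-3 at 20 Gy, control-1 or any 30 Gy library at 30 Gy, control-1 at 40 Gy and in the irradiated mean, and 40Gy-2 or 40Gy-3 in the last comparison. Those of all genes were without control-2 at 20 and 30 Gy and in the irradiated mean, control-1 at 40 Gy, and 40Gy-2 in the last comparison. A pseudocount of 5 made most of the 25 called changes over 1.5 times smaller and ended no call.

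With 30Gy-1 and 30Gy-2 averaged, the count at 30 Gy was 0 (5 at an unadjusted p under 0.05 in limma; 1.12% of all genes called). Without both 20Gy-3 and 30Gy-3 it was 1 at 20 Gy and 0 at 30 Gy (8 unadjusted), where 1.72% and 0.962% of all genes were called. With both changes, the counts were 0, 0, 3, 0 and 0 in the order above, where 8, 4, 15, 12 and 9 had an unadjusted p under 0.05 and 0.481%, 0.0687%, 1.05%, 0.292% and 1.73% of all genes were called. The lone 30 Gy sample is then assumed to vary like the other groups. At 40 Gy the 3 were LAMB3, LAMC1 and MMP2. With no other groups in the fit, 8 were called at 20 Gy, 7 at 30 Gy and 0 at 40 Gy (10 unadjusted), against 4.5%, 4.17% and 0.266% of all genes. De-duplicated in this way and without 40Gy-1, an alternative chosen after the data were seen, the counts were 12, 1, 12, 11 and 27 (5.14%, 0.756%, 14.7%, 4.71% and 23.9% of all genes). COL1A1 at 40 Gy against 20 and 30 Gy, at -0.84 with all libraries and not called, ran from -2.88 in that fit and -2.66 without 40Gy-1, where it was called, to 0.26 without 40Gy-3, where it was not. The cause of the other shifts was not tested.

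Replicate numbers are shared among groups, and the labels do not say whether they pair the libraries. Of 15 same-numbered pairs, 7 had a correlation of deviations over 0.1 (range -0.616 to 0.645). Such values cannot settle pairing, because deviations from means of so few libraries are tied to each other and some libraries were nearly identical. With the replicate block, the counts were 4, 0, 6, 6 and 10, and at 30 Gy 14 had an unadjusted p under 0.05. Of all genes, 3.43%, 2.1%, 6.91%, 3.78% and 21.9% were called in that fit. Depth is unknown, so low genes such as LUM and COL4A6 cannot be given a counting error.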

Other observations

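Among the genes under the minimum for a test, COL15A1, COL8A1, COL17A1, FBN1, LOX, MMP1 and MMP12 were highest in 40Gy-1, and MMP13 and MMP25 were not. COL15A1, a basement membrane collagen of vessels, was at 0.0395 and 0.0322 FPKM in the controls, 0.509, 0.734 and 0.584 at 20 Gy, 0.804, 0.753 and 0.766 at 30 Gy, and 2.89, 0.142 and 0.219 in 40Gy-1, 40Gy-2 and 40Gy-3. LOX, the founding lysyl oxidase, was at 0.136 and 0.1798 FPKM in the controls, 0.445, 0.303 and 0.439 at 20 Gy, 0.444, 0.634 and 0.528 at 30 Gy, and 1.35, 0.364 and 0.102 in 40Gy-1, 40Gy-2 and 40Gy-3. MMP13, a collagenase, was listed at 0 in both controls and was at 0.253, 0.288 and 0.617 FPKM in 40Gy-1, 40Gy-2 and 40Gy-3.

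MMP7, the epithelial matrilysin, varied more within the 20 and 30 Gy groups than within the controls. It was at 10.8, 36.7 and 12.3 FPKM in the 20 Gy libraries and at 42.2, 42.6 and 14.01 in the 30 Gy libraries, each in replicate order, with an SD of 14.6 and 20.1 against 3.02 in control. The summed FPKM of 9 bile duct markers was 346, 773 and 354 at 20 Gy and 775, 762 and 347 at 30 Gy. That of 17 macrophage markers was 668, 1140.3 and 603 at 20 Gy and 1033, 1015 and 607 at 30 Gy. MMP7 and these sums were chosen after their values were seen, and no relation between them was tested.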
